A study of Mus musculus with 36 samples.

Results

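Cells that patrol or react to damaged nervous tissue find their targets through G protein-coupled receptors for chemokines, complement fragments and formylated peptides. RNA levels of 8 such receptor genes, Cxcr4, Ackr3, Ccr1, Ccrl2, C5ar1, C3ar1, Fpr1 and Fpr2, were followed in cultured mouse microglia and astrocytes after death-inducing stimuli, with and without an inhibitor of the RIPK1 kinase. The genes were chosen by name with earlier results of these data known, as were the gene lists used below. Counts called among them are set beside all genes as a description and are no support for a set. All 8 were measured among the 15385 genes of the microglial table, and 6 among the 14551 genes of the astrocyte table, where Fpr1 and Fpr2 were not analysed. Of these, 7 receptors in microglia and 6 in astrocytes passed a filter on low values (a log2 value of at least 1 in as many libraries as the smallest group has). Ackr3 in microglia did not pass and is given by its values.

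All cells were wild-type glia of the C57BL/6 strain, from pups 2 to 4 days old whose brains were pooled, grown as mixed cultures for 12 days with 1 flask per mouse. Microglia were taken by CD11b selection and astrocytes from the fraction that remained, and both were rested for 24 to 48 h and treated for 4 h. Microglia received 6 treatments with 4 libraries each: DMSO (the vehicle), Nec-1s (N, an inhibitor of RIPK1 kinase activity), T/5z (TNF and 5z-7, an inhibitor of TAK1, which triggers apoptosis through RIPK1), T/S/Z (TNF, a Smac mimetic and the caspase inhibitor zVAD, which triggers necroptosis), and either stimulus together with Nec-1s (named T/5z/N or T/S/Z/N). Astrocytes received DMSO, N, T/S/Z and T/S/Z/N with 3 libraries each. The stimuli differ in more than the RIPK1 response, since T/5z also blocks TAK1 signalling and T/S/Z also blocks caspases. Every stimulated cell received TNF, but no group received TNF alone.

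CXCR4 couples to Gi proteins and directs migration toward the chemokine CXCL12, while ACKR3 binds the same ligand, and CXCL11, and removes it without Gi signalling. CCR1 responds to inflammatory CC chemokines such as CCL3 and CCL5. CCRL2 does not signal as a chemokine receptor but presents chemerin, the product of Rarres2, to other cells. C5AR1 and C3AR1 bind the anaphylatoxins released during complement activation, and FPR1 and FPR2 bind formylated peptides from bacteria and from the mitochondria of dying cells. In the brain these receptors are best known from microglia and infiltrating myeloid cells, and ACKR3 from astrocytes and other cells of the tissue.

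Values are the deposited log2(FPKM + 1), where FPKM is fragments scaled by exon length and by library depth, so levels can be set side by side between genes. Differences are on this log2 scale, and the added 1 shrinks them where levels are low. A gene was called when limma, fitted over all genes that passed the filter, gave a fold change over 1.5 and a Benjamini-Hochberg adjusted p under 0.05. The steps between low values put the depth of astrocyte libraries at 39.7 to 42.3 M fragments and that of the 6 replicate 4 libraries of microglia at 21.8 to 29.6 M. For microglial replicates 1 to 3, adjusted to replicate 4, no depth could be estimated. The study describes its replicates in general as biological, from separate mice or litters, but the labels of these libraries do not say what a replicate is, and p-values measure the spread between them. In microglia the adjustment removed shifts shared by libraries of 1 replicate number. The microglial SDs, ranges and overlaps below, also those of all genes, leave such shifts out. Microglial libraries carried high levels of 10 of 13 microglial markers. The other 3 were low in DMSO, with a mean FPKM of 9.04 for Tmem119, 4.27 for P2ry12 and 0.0797 for Siglech. Astrocyte libraries carried the 8 astrocyte markers at a summed FPKM of 2897 to 3373, along with 12 microglial markers at 57.7 to 102 and 5 fibroblast markers at 95.2 to 533, so these cultures held RNA of other cells too.

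The promoters of 4 receptors are shown because these genes had the largest microglial changes of the 8. Each runs from 250 bases before to 50 bases after the start of the transcript (RefSeq, GRCm38.p6) and is written 5′ to 3′ on the strand of the gene. Capitals mark matches to motifs, which were searched on both strands. The TATA box was searched as TATAAA, and 13.6% of 32851 promoters of this length hold it. The FOXO motif, bound by forkhead factors, was searched as GTAAACA and is held by 3.65% of these promoters. The AP-1 motif, bound by Fos and Jun proteins, was searched as TGANTCA and is held by 7.81%. The motif of PU.1, a factor that governs the myeloid lineage, was searched as GAGGAAGT and is held by 3.20%, and the NF-kB motif is held by 4.51%. A match is a description of letters, not a bound site.
Cxcr4, chr1:128592250-128592549, minus strand: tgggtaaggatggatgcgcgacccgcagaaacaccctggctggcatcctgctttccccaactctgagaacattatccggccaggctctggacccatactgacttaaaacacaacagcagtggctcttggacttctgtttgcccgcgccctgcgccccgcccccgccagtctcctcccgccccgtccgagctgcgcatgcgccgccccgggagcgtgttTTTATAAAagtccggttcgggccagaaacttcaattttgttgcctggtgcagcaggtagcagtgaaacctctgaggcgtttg
Ccrl2, chr9:111057469-111057768, minus strand: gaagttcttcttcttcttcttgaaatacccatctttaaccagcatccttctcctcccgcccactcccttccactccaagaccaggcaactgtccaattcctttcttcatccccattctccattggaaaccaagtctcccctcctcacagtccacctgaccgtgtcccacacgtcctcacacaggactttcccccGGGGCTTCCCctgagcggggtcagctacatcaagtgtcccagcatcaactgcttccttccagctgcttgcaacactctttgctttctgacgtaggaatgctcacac
Fpr1, chr17:17883890-17884189, minus strand: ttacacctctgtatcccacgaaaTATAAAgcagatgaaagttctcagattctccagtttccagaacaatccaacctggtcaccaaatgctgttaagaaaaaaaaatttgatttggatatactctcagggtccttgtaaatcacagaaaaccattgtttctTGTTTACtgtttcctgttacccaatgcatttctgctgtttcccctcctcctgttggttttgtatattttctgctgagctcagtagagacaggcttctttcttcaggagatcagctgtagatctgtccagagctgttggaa
Fpr2, chr17:17887574-17887873, plus strand: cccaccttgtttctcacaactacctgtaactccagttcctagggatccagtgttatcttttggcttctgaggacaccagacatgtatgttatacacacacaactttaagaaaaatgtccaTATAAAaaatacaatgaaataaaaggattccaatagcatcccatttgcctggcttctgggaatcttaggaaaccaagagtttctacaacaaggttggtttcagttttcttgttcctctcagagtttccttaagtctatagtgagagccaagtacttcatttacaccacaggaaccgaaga
The Cxcr4 window holds TATAAA from base -30 to -25 before the transcript start, overlapped by a match on the other strand. Of the 4, the Ccrl2 window alone holds an NF-kB motif match, from -56 to -47 (the windows of the 2 other Ccrl2 starts hold none). Fpr1 holds the FOXO match from -90 to -84 on the other strand and TATAAA from -227 to -222, and Fpr2 holds TATAAA from -130 to -125. Cxcr4 is rich in G and C (59.3%), while Fpr1 (40.0%) and Fpr2 (39.3%) lie under the median of all promoters (52.7%). The remaining 4 genes hold AP-1 and TATA matches in C3ar1, a TATA match in Ackr3 and no match in Ccr1 or C5ar1.

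Under the vehicle the microglial receptors spanned a wide range. C3ar1 was at a mean FPKM of 515 ± 5.18 (SD, n = 4), Cxcr4 at 166 ± 15.7 and C5ar1 at 141 ± 10.0. Ccrl2 followed at 12.7 ± 2.05, and Ccr1 (3.72 ± 0.878), Fpr1 (3.29 ± 1.12) and Fpr2 (3.05 ± 0.608) were low. Ackr3 was near 0 at 0.141 ± 0.0526. After T/5z, 5 of 7 receptors tested were called, 3 higher and 2 lower, beside 24.4% of all 10524 genes tested (11.1% higher, 13.3% lower). After T/S/Z, 6 of 7 were called, 5 higher and 1 lower, beside 29.6% of all genes (12.2% higher, 17.5% lower). The values of stimulus and DMSO did not overlap for 6 of 7 receptors with T/5z (63.5% of all genes) and 7 of 7 with T/S/Z (69.5%). The median change of the 7 was 0.09 with T/5z (all genes, -0.06) and 1.04 with T/S/Z (all genes, -0.08). Both stimuli were compared with the same DMSO libraries.

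**Figure D1:**
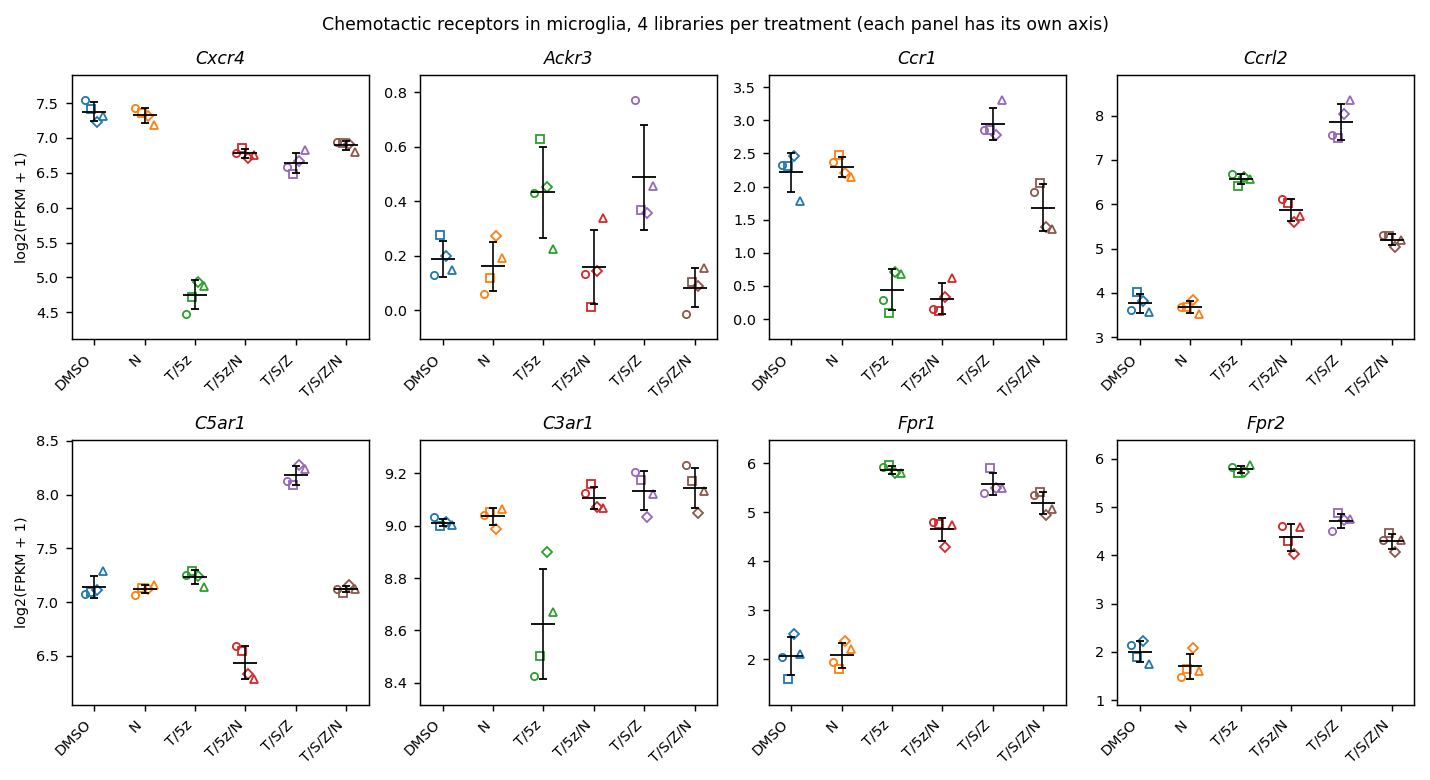
Deposited log2(FPKM + 1) of the 8 receptors in the 24 microglial libraries, by treatment (circle, square, diamond and triangle for replicates 1 to 4; bar, mean and SD). Cxcr4 fell from 7.38 to 4.75 with T/5z and lay at 6.78 with Nec-1s added, Ccrl2 was highest with T/S/Z (7.86) and Fpr1 and Fpr2 were high in every stimulated group.

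Cxcr4 (ENSMUSG00000045382, chr1:128588199-128592290, minus strand) fell after both stimuli, and more with T/5z. Its log2 values were 7.54, 7.42, 7.23 and 7.31 in DMSO and 4.48, 4.71, 4.94 and 4.88 with T/5z, a change of -2.62 (SE 0.119, adjusted p = 3.73e-06), or 6.17-fold lower. T/S/Z gave 6.59, 6.48, 6.67 and 6.83, a change of -0.74 (SE 0.0883, adjusted p = 0.000170). Every T/5z library lay below every T/S/Z library, and the difference between the stimuli, 1.89 (SE 0.0717, adjusted p = 8.39e-06), was called.

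Nec-1s brought most of the T/5z fall of Cxcr4 back. T/5z/N libraries were at 6.79, 6.86, 6.71 and 6.76, which was 2.03 higher than T/5z (SE 0.0822, adjusted p = 1.62e-06). That took back 77.3% of the fall (range 75.3% to 79.3% over the 4 replicates), and the rest, -0.60 against DMSO (SE 0.0553, adjusted p = 6.79e-05), was at the fold threshold and was not called without replicate 1 (-0.54), with 5 in place of 1 added before the log (-0.58) or centred on library medians (-0.57). After T/S/Z, Nec-1s gave 6.94, 6.93, 6.91 and 6.80, a difference of 0.25 (SE 0.0753, adjusted p = 0.0207) that was not called. T/S/Z/N and T/S/Z values overlapped, and T/S/Z/N stood at -0.48 against DMSO (adjusted p = 0.000565), under the fold threshold (-0.64, and called, under quantile normalization). The effect of Nec-1s on Cxcr4 was 1.77 larger after T/5z than after T/S/Z (SE 0.122, adjusted p = 4.03e-07 for the interaction).

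Ackr3 (ENSMUSG00000044337, chr1:90203980-90216751, plus strand), the scavenger of the same ligand, was barely detected in microglia. Its log2 values were 0.13, 0.28, 0.20 and 0.15 in DMSO, 0.43, 0.63, 0.45 and 0.22 with T/5z and 0.77, 0.37, 0.36 and 0.46 with T/S/Z. With Nec-1s they were 0.13, 0.01, 0.15 and 0.34 after T/5z and -0.01, 0.10, 0.09 and 0.15 after T/S/Z. The replicate 4 libraries correspond to an estimated 6.99 to 24.0 reads each. The 8 astrocyte markers moved with it in these libraries, at a summed FPKM of 6.79 to 8.88 in DMSO, 11.9 to 21.6 with T/5z, 13.5 to 19.3 with T/S/Z, 7.92 to 8.76 with T/5z/N and 4.88 to 5.92 with T/S/Z/N. Their part in the Ackr3 values was not tested.

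The CC chemokine receptor Ccr1 (ENSMUSG00000025804, chr9:123962124-123968692, minus strand) separated the stimuli in opposite directions. From 2.32, 2.31, 2.45 and 1.79 in DMSO it fell to 0.29, 0.09, 0.72 and 0.68 with T/5z, a change of -1.78 (SE 0.178, adjusted p = 0.000140). With T/S/Z it stood at 2.86, 2.85, 2.78 and 3.30, a change of 0.73 (SE 0.179, adjusted p = 0.00734) that rested on replicate 4. Without that replicate the change was 0.46 and was not called, nor was it with 5 added before the log (0.43) or with ordinary per-gene variances (adjusted p = 0.103). T/S/Z libraries all lay above T/5z libraries, by 2.50 (SE 0.121, adjusted p = 1.65e-05).

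Nec-1s left Ccr1 low after T/5z, at 0.15, 0.12, 0.34 and 0.62, and the difference from T/5z, -0.13 (SE 0.112, adjusted p = 0.350), was not called. Against DMSO it was -1.91 with T/5z/N (adjusted p = 5.33e-05). These low values rest on few reads, an estimated 39.95 with T/5z and 27.97 with T/5z/N in replicate 4. After T/S/Z, Nec-1s lowered Ccr1 to 1.91, 2.05, 1.40 and 1.36, a change of -1.27 (SE 0.172, adjusted p = 0.000594). These values overlapped those of DMSO, with a difference of -0.54 (adjusted p = 0.0114) that was not called, but was without replicate 2 (-0.63). The Nec-1s effect differed between the stimuli by 1.13 (SE 0.266, adjusted p = 0.00708). T/5z alone had already brought Ccr1 near 0 (mean log2 value 0.44), so Nec-1s could hardly lower it further there. The interaction cannot separate this floor from a different effect of Nec-1s.

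Ccrl2 (ENSMUSG00000043953, chr9:111054486-111057519, minus strand), which presents chemerin, had the largest rise with T/S/Z among the receptors. It stood at 3.62, 4.03, 3.83 and 3.57 in DMSO, at 6.67, 6.41, 6.62 and 6.58 with T/5z and at 7.56, 7.51, 8.03 and 8.35 with T/S/Z. The changes were 2.81 (SE 0.110, adjusted p = 2.07e-06) and 4.10 (SE 0.177, adjusted p = 9.41e-07), or 7.01-fold and 17.2-fold. All T/S/Z libraries lay above all T/5z libraries, by 1.29 (SE 0.131, adjusted p = 0.000335).

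Nec-1s reversed that order. Ccrl2 was at 6.11, 6.03, 5.59 and 5.75 with T/5z/N and at 5.30, 5.29, 5.04 and 5.18 with T/S/Z/N, so that T/S/Z/N was lower by 0.67 on the log2 scale (a change of -0.67, SE 0.0516, adjusted p = 5.04e-05). Nec-1s took back 24.9% ± 9.56 (SD, n = 4) of the T/5z rise and 64.9% ± 5.79 of the T/S/Z rise. The respective changes were -0.70 (SE 0.0942, adjusted p = 0.000586, and 0.0541 with ordinary per-gene variances) and -2.66 (SE 0.158, adjusted p = 1.43e-05), and they differed by 1.96 (SE 0.227, adjusted p = 3.44e-05). Ccrl2 stayed above DMSO in both groups, by 2.11 (adjusted p = 2.46e-06) and 1.44 (adjusted p = 1.67e-05).

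Of the complement receptors, C5ar1 (ENSMUSG00000049130, chr7:16246743-16259540, minus strand) rose with T/S/Z. It was at 7.07, 7.09, 7.12 and 7.29 in DMSO, 7.26, 7.29, 7.25 and 7.14 with T/5z and 8.12, 8.09, 8.27 and 8.24 with T/S/Z. The T/S/Z change was 1.04 (SE 0.0498, adjusted p = 1.58e-06) and was 0.55, under the fold threshold, after quantile normalization, while the T/5z difference was 0.09 (adjusted p = 0.258, and -0.16 after quantile normalization). T/S/Z exceeded T/5z by 0.95 (SE 0.0618, adjusted p = 4.92e-05).

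Nec-1s lowered C5ar1 after both stimuli. T/S/Z/N libraries lay at 7.12, 7.09, 7.16 and 7.12, in the range of DMSO, which was 1.06 under T/S/Z (change -1.06, SE 0.0481, adjusted p = 4.85e-06) and took back 101.8% ± 10.4 (SD, n = 4) of the rise. T/5z/N libraries lay at 6.59, 6.55, 6.33 and 6.29, which was below T/5z (-0.80, SE 0.0496, adjusted p = 1.12e-05) and also below DMSO (-0.70, SE 0.0857, adjusted p = 0.000298). The difference between these Nec-1s effects was 0.26 (SE 0.0944, adjusted p = 0.0560) and was not called. Nec-1s with no stimulus left C5ar1 at 7.07 to 7.16.

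C3ar1 (ENSMUSG00000040552, chr6:122847138-122856161, minus strand), the most abundant of the 8 under the vehicle, was called in none of the microglial comparisons with all libraries. It was at 9.03, 9.00, 9.01 and 9.00 in DMSO and at 8.43, 8.50, 8.90 and 8.67 with T/5z, a difference of -0.39 (SE 0.0813, adjusted p = 0.00481). All T/5z libraries lay below DMSO. With T/5z/N it was at 9.13, 9.16, 9.07 and 9.07, 0.48 above T/5z (SE 0.0844, adjusted p = 0.00218). The T/5z/N difference passed the fold threshold without replicate 3 (0.59), as did that of T/S/Z from T/5z (0.51 with all libraries, 0.64 without replicate 3). T/S/Z and T/S/Z/N stood at 9.03 to 9.21 and 9.05 to 9.23.

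Fpr1 (ENSMUSG00000045551, chr17:17876471-17883940, minus strand) and Fpr2 (ENSMUSG00000052270, chr17:17887824-17893952, plus strand) lie head to head, 3884 bases apart, and rose with every stimulus. Fpr1 went from 2.04, 1.59, 2.52 and 2.11 in DMSO to 5.93, 5.96, 5.79 and 5.81 with T/5z and 5.40, 5.90, 5.51 and 5.50 with T/S/Z. The changes were 3.81 (SE 0.156, adjusted p = 2.47e-06) and 3.51 (SE 0.185, adjusted p = 2.46e-06), or 14.0-fold and 11.4-fold. The groups overlapped each other, with T/S/Z at -0.30 against T/5z (adjusted p = 0.0189), under the fold threshold.

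Fpr2 went from 2.14, 1.90, 2.23 and 1.75 to 5.83, 5.71, 5.73 and 5.86 with T/5z and 4.51, 4.87, 4.73 and 4.75 with T/S/Z. The changes were 3.78 (SE 0.0968, adjusted p = 5.12e-07) and 2.71 (SE 0.116, adjusted p = 9.41e-07). Unlike Fpr1, all Fpr2 values with T/S/Z lay below those with T/5z, a difference of -1.07 (SE 0.0780, adjusted p = 7.57e-05). The Fpr2 values are uncertain, since the deposited annotation marked the gene as confounded and 31.5% of its 50-base stretches occur in other transcripts, most of all in Gm5966, while Fpr1 shares 1 stretch with Fpr2. Neutrophils are rich in both receptors. Of 8 neutrophil markers, 4 were analysed in microglia, at a summed FPKM of 0.106 to 17.5 over the libraries, and 0 of the 2 tested were called in any comparison.

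Nec-1s took back part of the Fpr1 and Fpr2 rise with T/5z. With T/5z/N, Fpr1 was at 4.80, 4.77, 4.30 and 4.75 and Fpr2 at 4.61, 4.29, 4.02 and 4.58. The changes from T/5z were -1.22 (SE 0.0688, adjusted p = 7.02e-06) and -1.41 (SE 0.0758, adjusted p = 5.69e-06), or 32.0% ± 8.70 and 37.2% ± 7.89 of the rise (SD, n = 4). With T/S/Z/N, Fpr1 was at 5.35, 5.42, 4.95 and 5.07 and Fpr2 at 4.31, 4.46, 4.08 and 4.32. The differences from T/S/Z, -0.38 (adjusted p = 0.00495) and -0.42 (adjusted p = 0.00150), were under the fold threshold, and Fpr1 values overlapped. The Nec-1s effects differed between the stimuli, by -0.84 for Fpr1 (SE 0.126, adjusted p = 0.000295) and -0.98 for Fpr2 (SE 0.143, adjusted p = 0.000241). Both genes stayed above DMSO with Nec-1s, Fpr1 by 2.59 and 3.13 and Fpr2 by 2.37 and 2.29 after T/5z and T/S/Z.

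**Figure D2:**
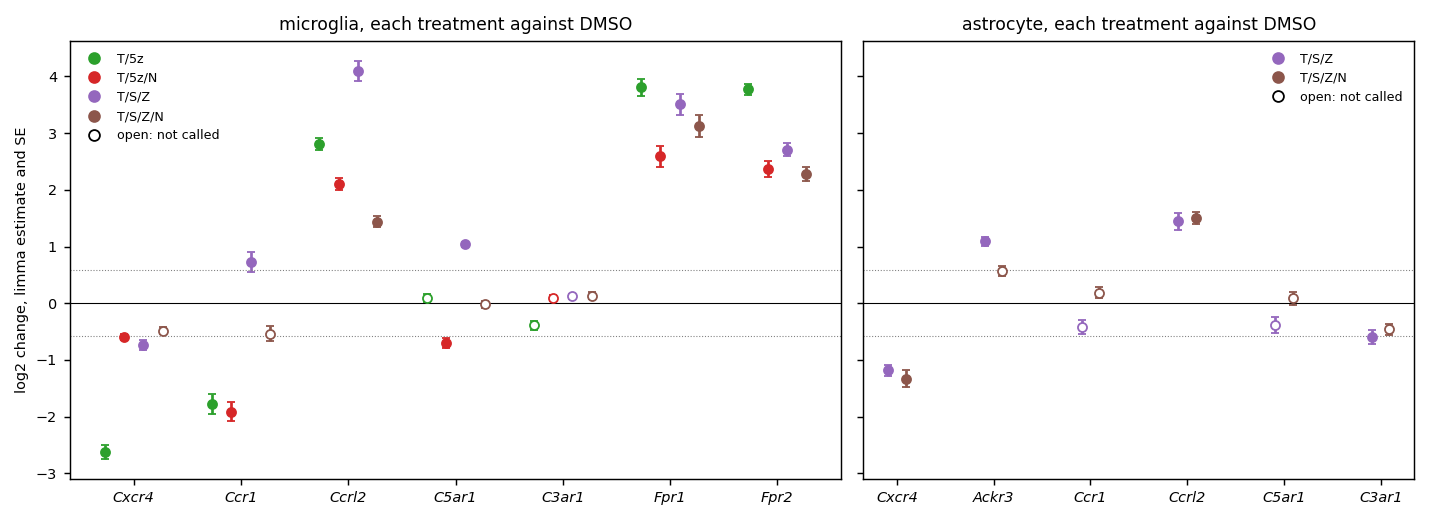
Log2 change (limma estimate, bars SE) of each receptor tested against DMSO, in microglia (left, 4 libraries per group) and astrocytes (right, 3 per group); open points were not called and dotted lines mark a fold change of 1.5. Ccr1 in microglia lay on opposite sides of 0 with T/5z (-1.78) and T/S/Z (0.73), and Cxcr4 lay at or below -0.48 in every stimulated group plotted.

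Across the 7 receptors tested, Nec-1s added to T/5z gave 5 calls, Cxcr4 higher and C5ar1, Ccrl2, Fpr1 and Fpr2 lower, beside 7.16% of all genes (2.64% higher, 4.52% lower). Added to T/S/Z it gave 3 calls, Ccr1, Ccrl2 and C5ar1, all lower, beside 12.1% of all genes (5.35% higher, 6.72% lower). For these comparisons the values did not overlap for 6 of 7 receptors (47.5% of all genes) and 4 of 7 (53.7%). The interaction, the effect of Nec-1s after T/5z minus that after T/S/Z, was called for 5 of 7 (Cxcr4, Ccrl2, Ccr1, Fpr1 and Fpr2) beside 6.47% of all genes, with 3 receptors positive (3.77%) and 2 negative (2.70%).

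Against DMSO, 6 of 7 receptors were called with T/5z/N (12.8% of all genes), 3 higher (6.16%) and 3 lower (6.69%). With T/S/Z/N 3 of 7 were called (14.1%), 3 higher (6.20%) and 0 lower (7.87%). Values did not overlap those of DMSO for 7 of 7 (47.2%) and 5 of 7 (50.8%). Between the stimuli 5 of 7 were called (9.83%), 4 higher with T/S/Z (5.42%) and 1 lower (4.42%), with no overlap for 6 of 7 (45.9%). Between the stimuli with Nec-1s 3 of 7 were called (3.38%), with no overlap for 4 of 7 (29.4%). These 3 were C5ar1 (0.68) and Ccr1 (1.37, or 0.47 with 5 added before the log), both higher with T/S/Z/N (1.80%), and Ccrl2, lower (1.59%). Fpr1 differed there by 0.54, and by 0.62, past the threshold, without replicate 4. Nec-1s alone gave 0 calls by limma among the receptors and 0% among all genes tested. At an unadjusted p under 0.05 it gave 1 receptor, Fpr2 (-0.31), and 892 genes, and values of 0 of 7 receptors did not overlap those of DMSO (2.96%).

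**Figure D3:**
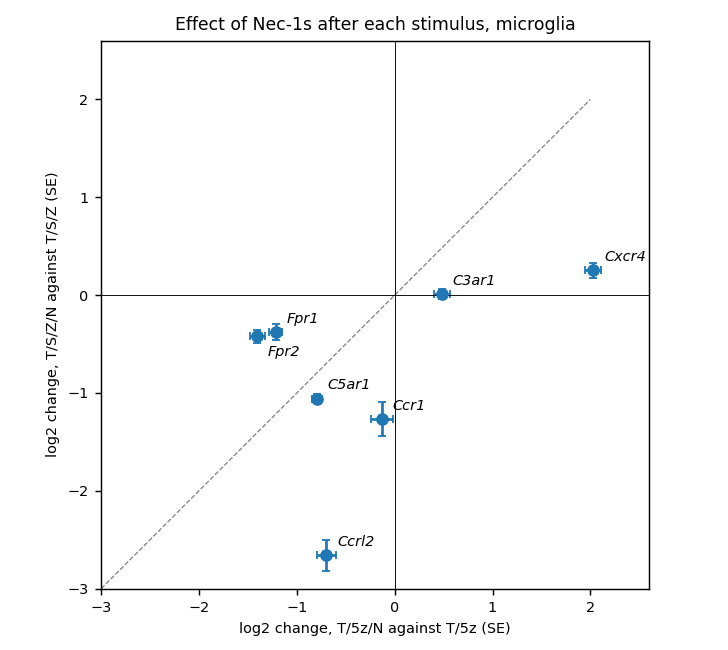
Log2 change with Nec-1s added after T/5z (x axis) and after T/S/Z (y axis) for the 7 receptors tested in microglia (bars, SE; dashed line, equal effects). Cxcr4 lies far to the right (2.03 against 0.25), Ccrl2 far below the line (-0.70 against -2.66), and Fpr1 and Fpr2 lie above it.

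In astrocytes, 4 of the 6 receptors were called with T/S/Z, 2 higher and 2 lower, beside 15.4% of 13842 genes tested (6.39% higher, 8.99% lower). All 6 had values that did not overlap those of DMSO (46.9% of all genes). With ordinary per-gene variances 0 of the 4 calls passed. The median of the 6 changes was -0.41, and that of all genes was -0.11.

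Cxcr4 fell in astrocytes too. It was at 5.42, 5.08 and 5.19 in DMSO and at 4.11, 4.12 and 3.90 with T/S/Z, a change of -1.19 (SE 0.0932, adjusted p = 0.000111). Ackr3 rose from 3.78, 3.63 and 3.49 to 4.73, 4.79 and 4.65, a change of 1.09 (SE 0.0839, adjusted p = 9.88e-05). The receptors that share CXCL12 thus moved in opposite directions in the same cultures. The summed FPKM of 7 oligodendrocyte lineage markers in these libraries was 100.2 to 117 in DMSO, 60.3 to 86.9 with T/S/Z and 67.9 to 71.9 with T/S/Z/N, with 2 of 7 lower with T/S/Z (8.99% of all genes) and 0 called when Nec-1s was added (3.10%), and its part in the Cxcr4 values was not tested.

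Nec-1s left astrocyte Cxcr4 low, at 3.64, 4.08 and 3.98. The difference from T/S/Z was -0.14 (adjusted p = 0.462) and that from DMSO was -1.33 (SE 0.146, adjusted p = 0.00181). Ackr3 with Nec-1s stood at 4.17, 4.22 and 4.20, between DMSO and T/S/Z with no overlap with either. Its difference from T/S/Z, -0.53 (SE 0.0846, adjusted p = 0.0152), and that from DMSO, 0.56 (SE 0.0881, adjusted p = 0.00664), were both under the fold threshold. The latter passed without replicate 1 (0.65), after quantile normalization (0.60) and after centring on library medians (0.62).

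Ccrl2 rose in astrocytes from 0.17, 0.27 and 0.60 to 1.70, 1.99 and 1.67, a change of 1.45 (SE 0.146, adjusted p = 0.000371). The level was low, an estimated 7.01 to 29.8 reads per library in DMSO and 123 to 165 with T/S/Z, and with 5 added before the log the change was 0.50. Ccrl2 passed the filter on low values only through T/S/Z and T/S/Z/N, where it is high, and C3ar1 only through DMSO and N, so for both genes passing the filter was tied to the difference, and the count of 4 is no support for the set. Fitted with no filter, the adjusted p-values with T/S/Z by limma were 0.000575 for Ccrl2 and 0.0123 for C3ar1. With Nec-1s it stood at 1.77, 1.85 and 1.91, which was 1.5 above DMSO (adjusted p = 0.000356, and 0.52 with 5 added) and 0.05 from T/S/Z (adjusted p = 0.773).

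The other 3 receptors were low in astrocytes. C3ar1 was at 1.24, 1.14 and 1.16 in DMSO and at 0.42, 0.58 and 0.75 with T/S/Z, a change of -0.60 (SE 0.123, adjusted p = 0.00863) at the fold threshold, which was not called without replicate 1 (-0.49), with 5 added (-0.19), after quantile normalization (-0.45) or after centring (-0.54). C5ar1 was at 2.13, 1.65 and 2.00 in DMSO and 1.64, 1.61 and 1.35 with T/S/Z, and the difference of -0.39 (adjusted p = 0.0614) was not called. Ccr1 was at 1.05, 0.90 and 1.12 and then 0.50, 0.70 and 0.59, a difference of -0.42 (adjusted p = 0.0294) that was not called. With Nec-1s added Ccr1 stood at 1.28, 1.16 and 1.18, and its difference from T/S/Z, 0.61 (SE 0.106, adjusted p = 0.0208), was the only one of 6 called (3.10% of all genes, 1.51% higher and 1.59% lower). It was not called without replicate 1 (0.52), with 5 added (0.19) or after quantile normalization (0.57). Ccr1 passed the filter on low values through DMSO, N and T/S/Z/N, and no T/S/Z library reached it (highest 0.70). Its call is no support for the set. C5ar1 with Nec-1s was at 2.13, 1.99 and 1.92, and C3ar1 at 0.72, 0.75 and 0.69.

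The levels of other cell types' markers in the astrocyte cultures moved as well. The summed FPKM of 12 microglial markers was 91.6 to 100.3 in DMSO, 57.7 to 58.9 with T/S/Z and 82.7 to 89.4 with T/S/Z/N. Of 11 markers tested, 6 fell with T/S/Z (8.99% of all genes) and 3 rose when Nec-1s was added (1.51%). Fibroblast markers moved likewise, from 515 to 525 in DMSO to 95.2 to 105 and then 418 to 424. The 2 endothelial markers measured went from 16.0 to 17.4 in DMSO to 3.29 to 4.02 and then 9.54 to 10.8, and both fell with T/S/Z. In such bulk cultures fewer cells of a type and less RNA per cell cannot be told apart, and the part of these cells in the receptor values was not tested. Against DMSO, T/S/Z/N gave 2 of 6 calls (9.08% of all genes), Ccrl2 higher (4.36%) and Cxcr4 lower (4.72%). Neither passed with ordinary per-gene variances (adjusted p = 0.0846 and 0.149). Values did not overlap for 5 of 6 (47.6%), and for 3 of 6 between T/S/Z/N and T/S/Z (35.1%). Nec-1s alone gave 0 of 6 by limma (0.0144% of all genes, and 0 of 6 at an unadjusted p under 0.05).

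**Figure D4:**
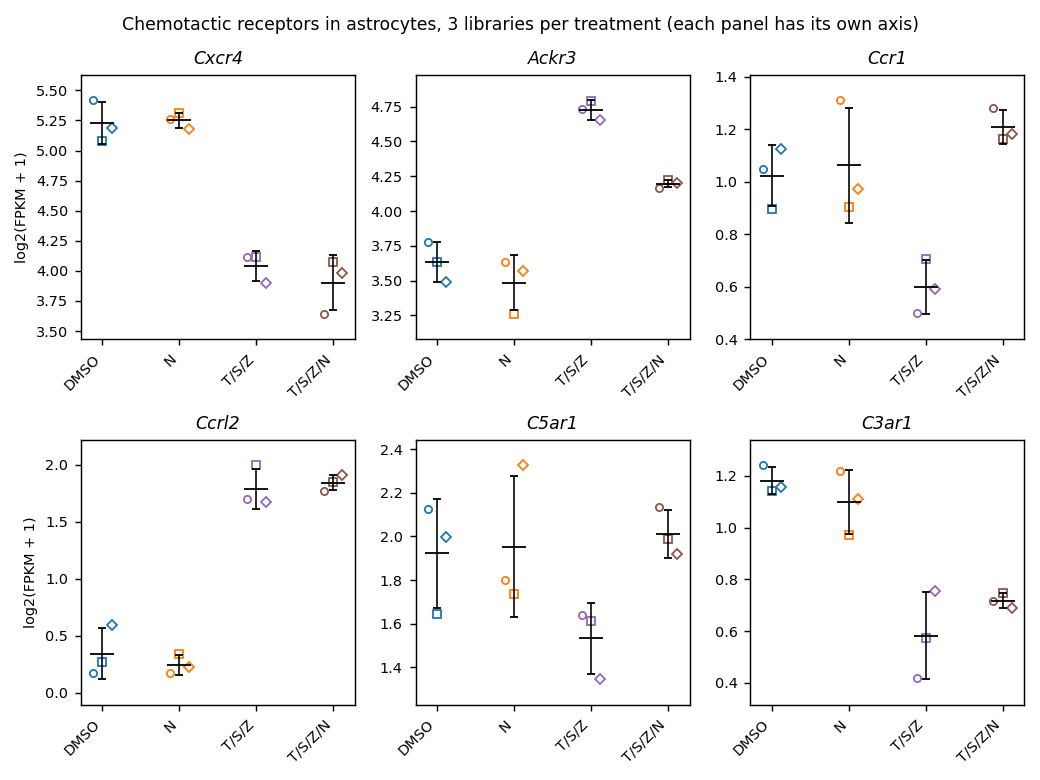
Deposited log2(FPKM + 1) of 6 receptors in the 12 astrocyte libraries, by treatment (circle, square and diamond for replicates 1 to 3; bar, mean and SD). Cxcr4 was near 4 in T/S/Z and T/S/Z/N, Ackr3 had its highest values with T/S/Z (4.65 to 4.79), and Ccrl2 rose from under 1 to 1.67 or more.

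Levels in the tables can be set side by side but not tested, since cell type, sequencing provider and normalization were confounded. In DMSO, Ackr3 had a mean FPKM of 11.5 in astrocytes and 0.141 in microglia, the latter 1.23% of the former. The other 5 shared receptors were lower in astrocytes. The astrocyte level was 22.1% of the microglial level for Cxcr4, 27.8% for Ccr1, 2.20% for Ccrl2, 2.01% for C5ar1 and 0.246% for C3ar1. The same share for 12 microglial markers ran from 0.349% (C1qa) to 43.0% (Tmem119), with a median of 1.54%. C3ar1 thus lay under every marker. C5ar1 and Ccrl2 lay near the markers' median. Cxcr4 and Ccr1 lay above all markers but Tmem119 and stood next to P2ry12 (19.3%), both of them low in these microglia. After T/S/Z the share was 15.7% for Cxcr4, 7.61% for Ccr1, 1.04% for Ccrl2, 0.658% for C5ar1 and 0.0899% for C3ar1, with markers at 0.177% to 18.7% (median 0.641%).

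**Figure D5:**
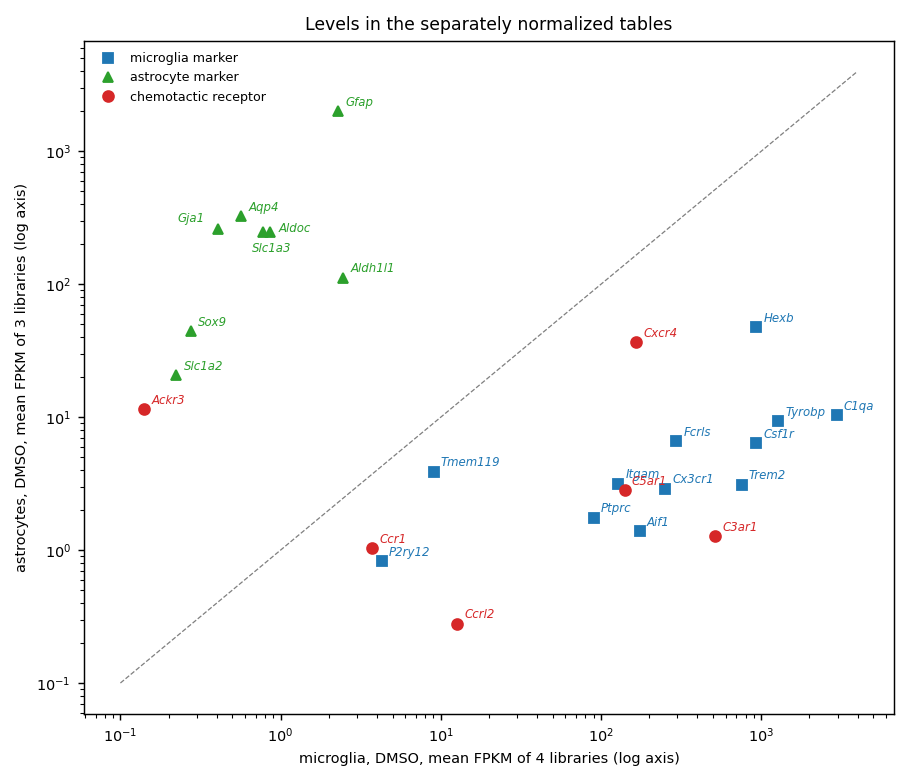
Mean FPKM in DMSO in microglia (x axis, 4 libraries) and astrocytes (y axis, 3 libraries), both on log axes, for 6 receptors, 12 microglial markers and 8 astrocyte markers; the dashed line marks equal values in tables that were normalized separately. Ackr3 lies with the astrocyte markers, C3ar1 and C5ar1 lie with the microglial markers, and Cxcr4 lies nearer the line, at 166 and 36.7.

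The ligands of these receptors moved as well. Of 19 listed ligand genes, 13 were tested in microglia, and 6 were higher and 1 lower with T/5z (median change 0.51, all genes -0.06) and 6 higher and 0 lower with T/S/Z (0.56, all genes -0.08). Of all genes, 11.1% were higher and 13.3% lower with T/5z, and 12.2% and 17.5% with T/S/Z. The CCR1 ligands Ccl3 and Ccl4 rose most with T/S/Z, by 6.59 (SE 0.0963, adjusted p = 1.61e-08) and 6.88 (SE 0.129, adjusted p = 4.74e-08), and Nec-1s lowered them (changes of -5.34 and -5.56). After T/5z they rose by 3.09 and 3.03, and Ccl9, another CCR1 ligand, by 2.23. Nec-1s lowered 5 ligands after T/5z and raised 1, and lowered 4 after T/S/Z (all genes, 4.52% lower and 2.64% higher, and 6.72% lower).

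In astrocytes 15 ligands were tested, and 8 were higher and 1 lower with T/S/Z (median 1.34, all genes -0.11), beside 6.39% and 8.99% of all genes. Ccl7 rose by 7.32 (SE 0.131, adjusted p = 1.73e-07) and Ccl5 by 6.26, both ligands of CCR1 or related receptors. RNA of Cxcl11, a gene listed for ACKR3, rose by 6.05 (SE 0.101, adjusted p = 1.49e-07) from a log2 level of 0.21. Whether these cells made CXCL11 protein was not measured. With Nec-1s added to T/S/Z, 2 were higher and 5 lower (all genes, 1.51% and 1.59%), among them Ccl3 (-3.29) and Ccl4 (-2.63). Cxcl11 still stood 5.28 above DMSO.

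Other chemotactic receptors numbered 33 on the list, of which 11 were tested in microglia and 7 in astrocytes. In microglia 2 were higher and 7 lower with T/5z (median -1.23, all genes -0.06), beside 11.1% and 13.3% of all genes. With T/S/Z 3 were higher and 4 lower (median -0.54, all genes -0.08), beside 12.2% and 17.5%. Ptafr, the receptor for platelet-activating factor, rose by 1.73 and 1.45. C5ar2, the other C5a receptor, fell by 1.93 with T/5z and by 1.78 with T/S/Z. Cmklr1, the signalling receptor for chemerin, rose by 1.18 with T/S/Z. Nec-1s raised 1 of the 11 after T/5z, Cx3cr1 (0.63), and lowered 1 after T/S/Z, Gpr183 (-1.17), beside 2.64% higher and 6.72% lower among all genes. In astrocytes S1pr1 rose with T/S/Z (1.36), while Cx3cr1 (-1.08) and Cmklr1 (-0.86) fell, and Nec-1s raised Cx3cr1 (0.70). The shares of all genes were 6.39% higher and 8.99% lower with T/S/Z and 1.51% higher with Nec-1s added.

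Of 25 signalling genes (Gi subunits, receptor kinases, arrestins and RGS proteins, which end Gi signalling), 20 were tested in microglia. With T/5z 4 were higher and 5 lower, and with T/S/Z also 4 and 5, with median changes of 0.04 and 0.15 (all genes, -0.06 and -0.08). Of all genes, 24.4% and 29.6% were called. Rgs16 rose by 2.11 and 2.25 and Rgs2 fell by 3.44 with T/5z and by 1.95 with T/S/Z. Rgs1 rose by 2.84 with T/S/Z (SE 0.228, adjusted p = 2.14e-05), and Nec-1s lowered it (a change of -4.26) to below its DMSO level. In astrocytes 21 were tested, with 4 higher and 3 lower with T/S/Z (15.4% of all genes called), and Rgs16 rose by 3.77 (SE 0.0760, adjusted p = 2.54e-07) and Rgs1 by 1.31. Nec-1s lowered both (changes of -0.89 and -1.42).

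Over all 24 microglial libraries Fpr1 and Fpr2 followed each other closely (Pearson r = 0.97), as did Ccrl2 and Fpr1 (r = 0.87), while Cxcr4 ran against Fpr2 (r = -0.80). These libraries share treatments, so r describes the treatment pattern. The genes most like Fpr1 were Marcksl1, Acod1 and Nfkbie (r of 0.99 each), and those most like Fpr2 were Ppm1b, Wtap and Cd38 (also 0.99). Cxcr4 was most like Smpdl3a (0.95), Gpr157 (0.95) and Gpnmb (0.94). Ccrl2 was nearest to Degs1, Pim3 and Arrdc4 (0.98 each), Ccr1 to Nus1 (0.97), Snx12 (0.95) and Sptlc2 (0.95), and C5ar1 to Bin1, Ppp1r18 and Npnt (0.96 each). C3ar1 had weaker partners, Fcna, Ftl1 and Dpp7, at 0.85 to 0.86.

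Over the 12 astrocyte libraries Cxcr4 ran against Ccrl2 (r = -0.96) and Ackr3 (r = -0.84). The genes most like Cxcr4 were Thy1, Sstr2 and Smarcd3 (0.98 to 0.99), and those most like Ccrl2 were Tifa, Tnfsf18 and AC114539.1 (0.99 each). Ackr3 was nearest to Aldh1a3, Usp43 and Kars (0.98 each) and C3ar1 to Hspa12a, Ccdc151 and Copz1 (0.97 each). C5ar1 was nearest to Igf2bp3 (0.91), Ehmt1 and Pcdh17 (both 0.87). The gene most like Ccr1 was Adgre1 (0.93), which encodes the macrophage and microglial protein F4/80, followed by Gpkow and F11r (both 0.92).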

How the data were processed

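RNA was sequenced from 36 libraries, 24 of microglia and 12 of astrocytes, grouped by the treatment in their labels. Alignment, quantification and normalization were done by the authors in OmicSoft Array Studio. The deposited values are log2(FPKM + 1), scaled to a common 75th percentile. Per the labels' protocol, microglial and astrocyte libraries were prepared by different providers (the study's methods name a single platform). The tables were normalized separately, so tests stayed within a table. In microglia, replicates 1 to 3 had for each gene the same mean across the 6 treatments as replicate 4 (largest difference 6.67e-05), an adjustment that the study's methods do not describe and that left negative values in all 18 of these libraries. Steps between low values gave an estimate of depth, but whole reads were not recovered, so no count test was made. Intervals for counting error were therefore not computed.

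Groups were compared by limma 3.58.1 (R 4.3.3; lmFit and eBayes with trend), 2 groups at a time, and the replicate number entered as a block, after the study's own paired comparison. Tests were 2-sided. The interaction used 4 microglial groups. Genes needed a log2 value of at least 1 in 4 microglial or 3 astrocyte libraries. P-values were adjusted over 10524 and 13842 genes. The fit was tested on simulated data. The share taken back is minus the Nec-1s change over the stimulus change, in percent, with its SD over replicates. Gene starts equal those of GENCODE M21 (GRCm38) for all 8 receptors. Alternatives were another pseudocount, other filters and scalings, ordinary variances, a fit over all groups, no block, and each replicate left out.

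The receptors and gene lists were chosen with earlier results of these data known. All 8 receptors are described. From each list the called genes are counted and at most the 4 with the largest change per comparison are named, and for each receptor the 3 genes with the highest Pearson r are given. Where several cell types were checked by markers, T and B cell markers were not analysed (0 of 4 in the tables), neuron markers reached a summed FPKM of 1.95 in microglia and 15.6 in astrocytes, endothelial markers 8.66 and 17.4, oligodendrocyte lineage markers 37.7 and 128, and fibroblast markers 16.5 in microglia. 1 gene of the list of other receptors is counted but not reported here by name. Protein sequences were not used here.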

Additional observations from a re-analysis of the deposited data

Results flagged for a closer look

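By the interaction test, the log2 effect of Nec-1s differed between the stimuli for 5 microglial receptors. The effects after T/5z minus those after T/S/Z were 1.77 for Cxcr4, 1.96 for Ccrl2, 1.13 for Ccr1, -0.84 for Fpr1 and -0.98 for Fpr2. Their adjusted p-values are given with each gene above. Ccr1 was already near 0 with T/5z (mean log2 value 0.44), which left Nec-1s little room to lower it there.

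Among 48 groups of 4 microglial libraries, 2 held a library far from the rest, and chance alone gives about 1 in 20. Ccr1 with T/S/Z had its highest library at 3.30, with a gap of 0.85 of the range to the next. Fpr1 with T/5z/N had its lowest library at 4.30, with a gap of 0.90 of the range.

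Between libraries of the same number, some receptors moved one way in every microglial case and the other way in every astrocyte case. The labels do not say what a number shares, so this rests on the numbering. These differences between cell types were not tested, because the tables were made separately. With T/S/Z against DMSO the log2 differences in microglia and astrocytes were 0.73 and -0.42 for Ccr1, 1.04 and -0.39 for C5ar1, and 0.12 and -0.60 for C3ar1. After quantile normalization the microglial C3ar1 difference was -0.27, the same direction as in astrocytes. With Nec-1s added to T/S/Z they were -1.27 and 0.61 for Ccr1 and -1.06 and 0.48 for C5ar1. With T/S/Z/N against DMSO they were -0.54 and 0.18 for Ccr1 and 0.13 and -0.46 for C3ar1. The microglial Ccr1 values of T/S/Z/N overlapped those of DMSO. In astrocytes these 3 genes were low, and their values with T/S/Z and the microglial marker sum were both below DMSO. With Nec-1s added the marker sum was higher again, as were the values of Ccr1 (called) and C5ar1 (not called), while C3ar1 differed from T/S/Z by 0.14 (adjusted p = 0.435 by limma). The part of those cells was not tested.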

How the results depend on the processing

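Over 94 results and 1078 alternative values, 1026 kept their direction and their side of the threshold, 26 lost a call, 8 gained one and 18 reversed. Of the 48 called results, 532 of 558 alternative values kept the call and 0 reversed. Reversals away from single replicates were all of small differences: C5ar1 with T/5z (-0.16) and C3ar1 with T/S/Z (-0.27) after quantile normalization, C3ar1 with Nec-1s added to T/S/Z (-0.062) and C5ar1 with T/S/Z/N against DMSO (0.0053) after centring on medians, and astrocyte Ccrl2 with Nec-1s added to T/S/Z (-0.0051) after quantile normalization. In astrocytes, the 4 receptors called with T/S/Z became 2 with 5 added, 2 with a mean log2 filter of 3 and 0 with ordinary variances. The single call with Nec-1s added became 0 under these 3 settings and after quantile normalization, and the 2 calls of T/S/Z/N against DMSO became 1, 1 and 0. Rescaling both tables to a common sum moved the astrocyte share after T/S/Z from 15.7% to 19.6% for Cxcr4 and from 0.658% to 0.824% for C5ar1. Beyond fewer genes under the filter and the weight of low values with 5 added, the cause was not tested.

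Leaving out 1 replicate at a time gave 5 calls with T/5z, 5 to 6 with T/S/Z, 5 to 6 and 3 with Nec-1s added, 5 to 6 and 3 to 4 against DMSO, 5 to 6 and 3 to 4 between stimuli, and 5 for the interaction in microglia, and 3 to 4, 0 to 1 and 2 to 3 in astrocytes. Nec-1s alone gave 0. The reversals were Ccr1 (-0.014 to 0.19), Ccrl2 (-0.13 to 0.013), C5ar1 (-0.042 to 0.012) and Fpr1 (-0.048 to 0.074) with Nec-1s alone in microglia, C5ar1 with T/S/Z/N against DMSO (-0.043 to 0.030), Cxcr4 (-0.080 to 0.11), Ccr1 (-0.073 to 0.13), Ccrl2 (-0.18 to 0.038) and C5ar1 (-0.12 to 0.21) with Nec-1s alone in astrocytes, Cxcr4 (-0.26 to 0.021) and Ccrl2 (-0.036 to 0.15) with Nec-1s added to T/S/Z there, and C5ar1 with T/S/Z/N against DMSO there (-0.037 to 0.17). The share taken back was 76.6% to 78.1% for Cxcr4 after T/5z. For Ccr1 after T/S/Z it ran from 143% to 224%, around 174% ± 139.5 (SD, n = 4), as a share of a rise that was not called without replicate 4.

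Without the replicate block, each comparison called as many receptors as with it (5 and 6 with T/5z and T/S/Z). In astrocytes the deviations of same-numbered libraries correlated at a median of 0.04 (-0.14 to 0.41), so the numbers did not show a pairing. In microglia neither the fit without the block nor the correlation says anything about a pairing. The adjustment of replicate means had removed any shift that libraries of 1 number could share. Depth limits Ackr3 in microglia, Ccr1 in microglia with T/5z and T/5z/N, and Ccrl2, Ccr1 and C3ar1 in astrocytes, which rest on few reads. With no filter, Ackr3 in microglia stood at 0.24 with T/5z (adjusted p = 0.0187) and 0.30 with T/S/Z (adjusted p = 0.0358), neither called.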
